A study of Mus musculus with 9 samples.

Results

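This report describes 9 chemokine receptor genes of mouse lung, Ccr1, Ccr2, Ccr6, Ccr7, Cx3cr1, Cxcr2, Cxcr3, Cxcr4 and Cxcr6, on arrays of irradiated and non-irradiated left lung. The genes were given as a list, and each was represented by its brightest probe by mean log2 intensity over all arrays. They are 9 of the 20791 genes that could be tested, and all 9 were found on the arrays. The series holds 9 one-color arrays, 4 labeled as control and 5 labeled as irradiated left lung tissue. All mice were male C57BL/6 animals aged 10 weeks. Control lungs came from mice that were not irradiated. The irradiated mice were anesthetized with zoletil and rompun during irradiation, and nothing in the sources used here says that the control mice also were. Neither the dose nor the lung region nor the time after irradiation is given for any array, so the irradiated arrays may differ in these and their spread would include it. The study's methods state that RNA from triplicate experiments was pooled before labeling, so that each array reads a pool and not 1 animal, and p-values measure only the spread between these pools. In whole lung tissue, fewer cells of a type and less RNA per cell cannot be told apart.

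Chemokines are small secreted proteins that direct the movement of leukocytes along their gradients. Their receptors cross the cell membrane as a bundle of helices and act through inhibitory G proteins, which start the signals for adhesion and migration. In the lung, CCR2 and CX3CR1 are known from monocytes and macrophages, CXCR2 from neutrophils, CXCR3 and CXCR6 from effector and resident T cells, CCR6 from B cells and some T cells, and CCR7 from naive T cells and migrating dendritic cells. CXCR4, the receptor of CXCL12, retains cells in bone marrow and is widely expressed on leukocytes.

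None of the 9 receptors was called higher or lower in the irradiated lungs, while of the chemokines that bind them 1, Ccl6, was called higher and others had larger fitted differences that did not pass. With limma and Benjamini-Hochberg adjustment over all probes, 0 of 9 receptors had an adjusted p under 0.05, and 0 of 9 had an unadjusted p under 0.05. Over all probes 0.333% and over all genes 0.394% passed the adjusted threshold in either direction, and 12.0% had an unadjusted p under 0.05, 7.08% higher and 4.93% lower. The exact two-sided permutation test of each receptor also gave 0 of 9 with p under 0.05, with 0.00794 as the smallest p that 4 arrays against 5 allow. The fitted log2 differences, irradiated minus control, ran from −0.39 for Cxcr2 to 0.51 for Ccr1, with a median of 0.079 against 0.0063 over all genes. For all 9 receptors the values of the groups overlapped. Over all genes, the groups did not overlap for 3.22% in the higher direction and for 1.74% in the lower direction.

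**Figure D1:**
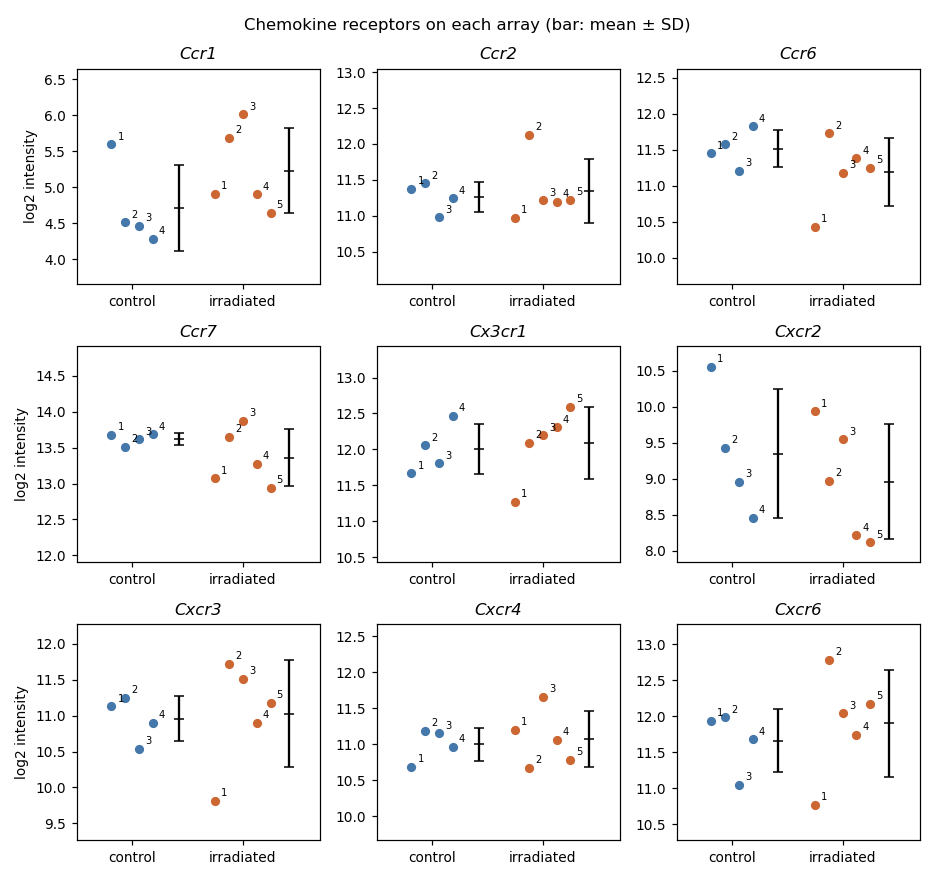
Log2 intensity of each receptor on each array, with control arrays in blue, irradiated arrays in orange, replicate numbers beside the points and black bars for the mean ± SD. Every panel spans the same height but starts at its own level, and in each panel the irradiated points overlap the control points.

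The arrays themselves were comparable, with 1 feature that bears on every result below. Between 72.8% and 89.1% of gene spots were well above background on an array, no spot was saturated, and correlations between arrays across genes were between 0.975 and 0.990. Each control array had an irradiated array whose spot grid began at nearly the same height in the scanner image. These 4 scan pairs were control 1 with irradiated 2, control 2 with irradiated 3, control 3 with irradiated 4, and control 4 with irradiated 5. What a scan pair stands for is not given in the sources used here. Values of the 2 arrays of a pair deviated from their group means together, with correlations across genes of 0.285, 0.201, 0.331 and 0.455. The rule paired arrays that were each other's nearest in this height, and it left irradiated 1 without a partner. The grid of irradiated 1 began at 224.3, nearest to irradiated 3 at 220.1, which itself lay nearer to control 2 at 218.0. For comparison, the grids of control 1 and irradiated 2 began at 240.5 and 244.3. A fit with the scan pairs as a block therefore takes nothing from irradiated 1 for the difference, and its calls and intervals rest on the other arrays. In the block fit the receptors called were again 0 of 9, and the lowest adjusted p was 0.0746, for Cxcr3.

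The inflammatory receptor Ccr1 binds CCL3, CCL5 and related chemokines on myeloid cells. Its probe, A_52_P616356, was near the background, being well above it on 2 of 4 control and 3 of 5 irradiated arrays. Log2 intensity was 5.60, 4.51, 4.46 and 4.28 on control arrays 1 to 4, and 4.90, 5.68, 6.01, 4.90 and 4.64 on irradiated arrays 1 to 5. Control 1 lay just below irradiated 2 and 3, and the other 3 control arrays were lower than every irradiated array. The difference was 0.51 (SE 0.37, 95% interval −0.30 to 1.33), with an adjusted p of 0.741 in limma and an exact permutation p of 0.206. No fold is given for a probe so near background, and the difference was 0.15 with normexp background correction, 0.27 with scaling to the 75th percentile and 0.28 in the authors' table. Ccr1 was higher in the irradiated array of all 4 scan pairs, by 0.087, 1.50, 0.44 and 0.36 in the order given above. With the pairs as a block its difference was 0.60 and its adjusted p was 0.282.

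Ccr2, which brings monocytes out of the marrow in response to CCL2, CCL7 and CCL12, gave 11.37, 11.46, 10.98 and 11.24 on the control arrays (probe A_51_P245989). The irradiated arrays gave 10.97, 12.12, 11.22, 11.19 and 11.22. Irradiated 2 stood above all others, and the other 4 irradiated arrays lay within or just below the control range. The difference was 0.083 (SE 0.22, 95% interval −0.40 to 0.56), or 1.06-fold, with a limma adjusted p of 0.965 and an exact permutation p of 0.881. Within scan pairs the differences were 0.75, −0.24, 0.21 and −0.020, and the block gave 0.18 with an adjusted p of 0.596.

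Cx3cr1, the receptor of the membrane-bound chemokine CX3CL1 on patrolling monocytes and macrophages, gave 11.67, 12.06, 11.81 and 12.47 on the control arrays (probe A_55_P2007964). The irradiated arrays gave 11.27, 12.10, 12.20, 12.31 and 12.59, so that irradiated 1 was the lowest of all 9 arrays and irradiated 5 the highest. The difference was 0.090 (SE 0.26, 95% interval −0.48 to 0.66), with a limma adjusted p of 0.970 and an exact permutation p of 0.770. The other 2 probes of Cx3cr1 differed by 0.045 and 0.093, with adjusted p of 0.990 and 0.983. Within scan pairs the irradiated array was higher every time, by 0.43, 0.14, 0.50 and 0.13. The block gave 0.30 (95% interval 0.078 to 0.51) with an adjusted p of 0.143.

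Ccr6 is the receptor of CCL20 on B cells, dendritic cells and some T cells. Its probe, A_55_P2108943, gave 11.45, 11.58, 11.21 and 11.83 in the control group and 10.43, 11.73, 11.18, 11.38 and 11.25 in the irradiated group. Irradiated 1 was lower than all others, and the remaining irradiated arrays covered nearly the same range as the control arrays. The difference was −0.32 (SE 0.23, 95% interval −0.84 to 0.20), with a limma adjusted p of 0.745 and an exact permutation p of 0.270. Without irradiated 1 it was −0.13, with an adjusted p of 0.897. Within scan pairs the differences were 0.28, −0.40, 0.17 and −0.58, which the block put at −0.13 with an adjusted p of 0.694.

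Ccr7 leads cells to lymphoid tissue along CCL19 and CCL21. Its probe, A_55_P2023542, gave 13.68, 13.51, 13.61 and 13.69 on the control arrays, which lay close together, and 13.07, 13.65, 13.87, 13.27 and 12.94 on the irradiated arrays. Irradiated 1, 4 and 5 were below all control arrays, irradiated 3 was above them, and irradiated 2 was among them. The difference was −0.26 (SE 0.18, 95% interval −0.66 to 0.14), with a limma adjusted p of 0.724 and an exact permutation p of 0.214. Within scan pairs it was −0.027, 0.36, −0.34 and −0.75, and the block gave −0.19 with an adjusted p of 0.606.

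Cxcr2, the receptor of CXCL1, CXCL2 and CXCL5 on neutrophils, varied most of the 9 receptors, over 2.44 log2 units. Its probe, A_52_P559975, gave 10.56, 9.42, 8.95 and 8.45 on the control arrays against 9.93, 8.97, 9.55, 8.21 and 8.12 on the irradiated arrays. Control 1 was the highest and irradiated 5 the lowest, with the other arrays of the groups interleaved. The difference was −0.39 (SE 0.48, 95% interval −1.47 to 0.69), with a limma adjusted p of 0.881 and an exact permutation p of 0.516. It was 0.012 without control 1 and −0.69 without control 4. Within scan pairs it was −1.59, 0.12, −0.74 and −0.34, and the block gave −0.64 with an adjusted p of 0.283. In 11 neutrophil markers 0 were called without a block and 9 had a negative difference, beside 10103 of all 20791 genes. Their median was −0.45 against 0.0063 over all genes. With the pairs as a random block, which keeps irradiated 1 and calls 9.20% of all genes, Camp and Ngp were called lower. They differed by −1.22 and −2.20 (adjusted p 0.0346 and 0.0174), and Ngp was well above background on 2 of 5 irradiated arrays. The mean log2 intensity of the 11 markers, set to 0 at the control mean, ran from −0.42 to 0.56 in the control group and from −0.98 to −0.12 in the irradiated group. The part of the neutrophil markers in the Cxcr2 values was not tested.

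Cxcr3 binds the interferon-induced chemokines CXCL9 and CXCL10 on effector T cells and natural killer cells. Its probe, A_51_P319022, gave 11.13, 11.25, 10.54 and 10.90 in the control group and 9.81, 11.72, 11.51, 10.90 and 11.18 in the irradiated group. Irradiated 1 was the lowest array, irradiated 2 and 3 were the highest, and irradiated 4 and 5 lay among the control arrays. The difference was 0.071 (SE 0.34, 95% interval −0.70 to 0.84), with a limma adjusted p of 0.989 and an exact permutation p of 0.881. Without irradiated 1 the difference was 0.37, with an adjusted p of 0.622. Cxcr3 was higher in the irradiated array of all 4 scan pairs, by 0.59, 0.26, 0.37 and 0.27. The block gave 0.37 (95% interval 0.18 to 0.57) with an adjusted p of 0.0746. With the pairs as a random block, which keeps irradiated 1, the difference was 0.25 (95% interval −0.23 to 0.74), with an adjusted p of 0.535.

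Cxcr6, the receptor of CXCL16 on tissue-resident T cells, gave 11.94, 11.98, 11.04 and 11.68 on the control arrays (probe A_55_P1962209). The irradiated arrays gave 10.77, 12.78, 12.04, 11.74 and 12.17, so that irradiated 1 was again the lowest array and irradiated 2 the highest. The difference was 0.24 (SE 0.36, 95% interval −0.56 to 1.04), with a limma adjusted p of 0.910 and an exact permutation p of 0.579. A second probe of Cxcr6 differed by 0.25, with an adjusted p of 0.908. Without irradiated 1 the difference was 0.52, with an adjusted p of 0.549, and without irradiated 2 it was 0.018. Within scan pairs it was 0.85, 0.056, 0.69 and 0.49, and the block gave 0.52 (95% interval 0.17 to 0.87) with an adjusted p of 0.119.

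Cxcr4 gave 10.69, 11.19, 11.15 and 10.97 on the control arrays against 11.20, 10.67, 11.66, 11.06 and 10.79 on the irradiated arrays (probe A_52_P585124). Irradiated 2 was the lowest and irradiated 3 the highest of the 9 arrays, an order unlike that of Cxcr3 and Cxcr6. The difference was 0.079 (SE 0.20, 95% interval −0.37 to 0.52), with a limma adjusted p of 0.964 and an exact permutation p of 0.730. Within scan pairs it was −0.016, 0.47, −0.087 and −0.18, and the block gave 0.047 with an adjusted p of 0.859.

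**Figure D2:**
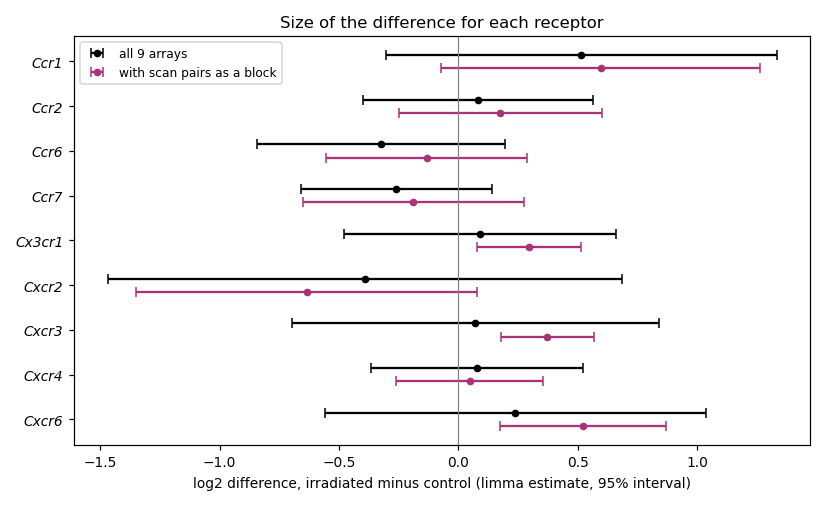
Limma estimates of the log2 difference, irradiated minus control, with 95% intervals, for each receptor over all 9 arrays (black) and with the scan pairs as a block (purple). All black intervals cross 0, and the purple intervals of Cx3cr1, Cxcr3 and Cxcr6 lie above 0, although no adjusted p was under 0.05 and these 3 cross 0 with the pairs as a random block.

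The intervals of the fit over all 9 arrays also give bounds as folds. For Ccr2, Cxcr4 and Ccr7 the upper bounds were 1.48-fold, 1.44-fold and 1.10-fold, and the lower bounds were 0.76-fold, 0.78-fold and 0.63-fold. With the scan pairs as a block the upper bounds of Ccr2 and Ccr7 were higher, at 0.60 and 0.28 on the log2 scale against 0.56 and 0.14. With the pairs as a random block, the intervals of Cx3cr1, Cxcr3 and Cxcr6 crossed 0, at −0.15 to 0.58, −0.23 to 0.74 and −0.10 to 0.93. For Cxcr2 the interval over all 9 arrays ran from 0.36-fold to 1.61-fold. Of the 9 receptors, Cxcr2 and Ccr1 had the widest intervals.

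Within scan pairs, 4 of 9 receptors were higher in every irradiated array, Ccr1, Cx3cr1, Cxcr3 and Cxcr6, and 0 were lower in every one. For Ccr1 this rests on values at background, since neither array of the pair of control 4 and irradiated 5, nor control 2, was well above it. Over all genes, 17.3% were higher in every pair and 17.4% were lower in every pair. The other 5 receptors went in both directions. Cxcr3 had the narrowest spread among these 4, and the smallest of its pair differences was 0.26.

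**Figure D3:**
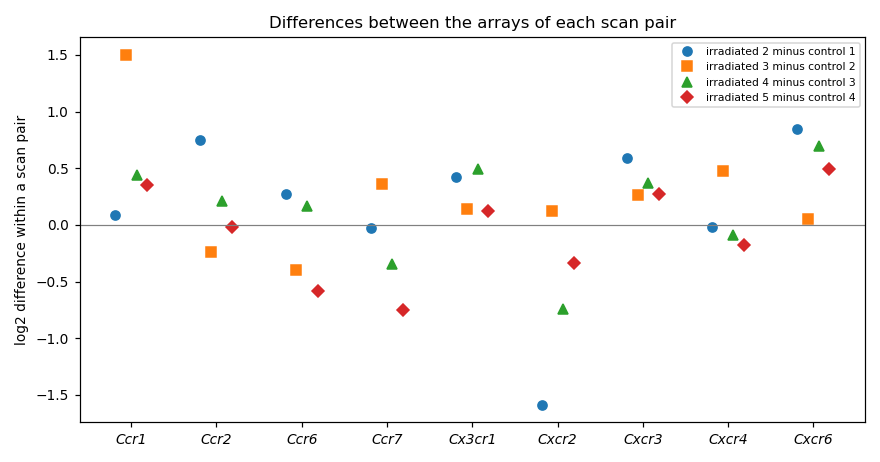
Log2 difference between the irradiated and the control array of each scan pair, for each receptor, with 1 symbol per pair. All 4 symbols of Ccr1, Cx3cr1, Cxcr3 and Cxcr6 lie above 0, and those of the other 5 receptors lie on both sides.

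Irradiated 1 held the lowest value of 5 of 9 receptors, Ccr2, Ccr6, Cx3cr1, Cxcr3 and Cxcr6, and the highest of 0. Irradiated 2 held the highest value of Ccr2, Cxcr3 and Cxcr6, and irradiated 3 that of Ccr1, Ccr7 and Cxcr4. The mean of the 9 receptors, set to 0 at the control mean, was −0.41 on irradiated 1, 0.37 on irradiated 2, 0.35 on irradiated 3, −0.12 on irradiated 4 and −0.13 on irradiated 5. On the control arrays it was 0.22, 0.098, −0.26 and −0.063. The irradiated arrays thus spread to both sides of the control arrays. With irradiated 1 left out, 0 of 9 receptors were called and the differences ran from −0.63 for Cxcr2 to 0.59 for Ccr1.

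The mean of the T cell markers was, like Cxcr3, lowest on irradiated 1 and highest on irradiated 2 and 3, which did not hold for every marker, as Cd3d, Cd3g and Cd247 were lowest on a control array and Cd4 was highest on one. Cxcr6 was also lowest on irradiated 1 and highest on irradiated 2, but its next highest array was irradiated 5. The mean of 14 T cell markers, on the same scale, was −0.42, 0.47, 0.47, −0.055 and −0.19 on irradiated arrays 1 to 5 and between −0.19 and 0.21 on the control arrays. All 14 were detected well above background throughout, and 0 were called. The mean of 10 B cell markers was −0.49 on irradiated 1, below the other irradiated arrays at −0.32 to −0.26, and on the control arrays it was −0.29 to 0.34. The mean of 12 monocyte and macrophage markers was 0.15 to 0.35 on the irradiated arrays and −0.22 to 0.26 on the control arrays, with 0 called. With the scan pairs as a block, 5 of these 12 were called, all higher, Adgre1 by 0.86, Cd14 by 0.64, Cybb by 0.41, Mertk by 0.36 and Msr1 by 1.56, with adjusted p between 0.0412 and 0.0470, beside 3.75% of all genes called in that fit. With the pairs as a random block, which calls 9.20% of all genes and keeps irradiated 1, Cd14 and Cybb were not called, while Fcgr1 and Mrc1 were called higher. The list did not go 1 way. Itgam, Marco and Siglecf differed by −0.51, −0.63 and −0.47 without the block (adjusted p 0.288, 0.773 and 0.759), and Itgam was called lower, by −0.47 with an adjusted p of 0.0415, with the random block. These genes were chosen after their values were seen. Irradiated 1 also had a mean of −5.43 for 10 cardiac muscle genes, which were between −0.55 and 0.56 on every other array. Control 3 had a mean of 4.11 for 10 skeletal muscle genes, against −1.70 to −0.72 on the others. The part of any of these lists in the receptor values was not tested.

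**Figure D4:**
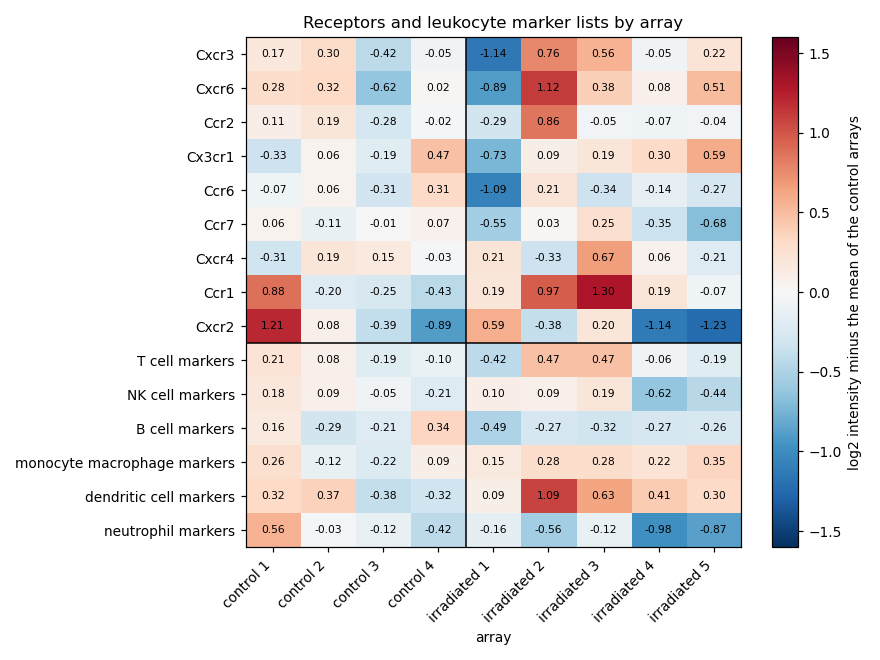
Log2 intensity of each receptor, and mean log2 intensity of 6 leukocyte marker lists, on each array after subtraction of the control mean, with red above and blue below 0. Cxcr3 is lowest on irradiated 1 and highest on irradiated 2 and 3, as is the mean of the T cell markers, Cxcr6 is at 0.51 on irradiated 5 where that mean is −0.19, and Cxcr2 is lowest on irradiated 4 and 5, as is the mean of the neutrophil markers.

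The receptors were compared with each other by the mean absolute difference between their 9 values after each was centered on its own mean. Of 36 pairs, Cxcr3 and Cxcr6 were the most alike at 0.146, followed by Ccr2 and Ccr6 at 0.236 and by Ccr2 and Cxcr3 at 0.241. Cx3cr1 and Cxcr2 were the least alike at 0.894. These are descriptions over 9 arrays that the receptors share, and they carry no test. By the same measure, the genes nearest to Ccr1, which had the largest difference in the fit over all 9 arrays, were Ccl11, an eosinophil chemokine, at 0.187, Apoc1, an apolipoprotein, at 0.193 and Zbp1, a sensor of nucleic acids induced by interferon, at 0.208, among 15691 genes. With normexp, with scaling to the 75th percentile or with the scan pair block, Cxcr2 differed more than Ccr1, at −0.40, −0.45 and −0.64, and the Ccr1 profile includes arrays at background.

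The sequences before the transcription starts of Cxcr3 and Cxcr6 are shown because these receptors had the most alike values over the arrays, and that of Cxcr2 because it varied most and in another order. They are the 250 bases upstream of the start in a RefSeq table of mouse assembly GRCm38.p6, read 5′ to 3′ on the strand of the gene. Capitals mark matches to AGGAAG on either strand, a longer string that holds GGAA, the core bound by ETS family factors. The Cxcr3 sequence is chrX:101734148-101734397 on the minus strand, that of Cxcr6 is chr9:123806227-123806476 on the plus strand, and that of Cxcr2 is chr1:74153744-74153993 on the plus strand.
Cxcr3: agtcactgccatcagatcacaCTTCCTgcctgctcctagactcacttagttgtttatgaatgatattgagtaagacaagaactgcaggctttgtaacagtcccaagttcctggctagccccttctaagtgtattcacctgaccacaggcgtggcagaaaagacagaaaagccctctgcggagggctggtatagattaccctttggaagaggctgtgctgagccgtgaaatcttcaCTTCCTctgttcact
Cxcr6: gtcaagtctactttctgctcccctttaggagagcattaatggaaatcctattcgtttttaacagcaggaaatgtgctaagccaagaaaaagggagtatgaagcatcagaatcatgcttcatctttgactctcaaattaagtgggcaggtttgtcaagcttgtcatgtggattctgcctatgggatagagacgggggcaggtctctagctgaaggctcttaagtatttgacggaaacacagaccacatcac
Cxcr2: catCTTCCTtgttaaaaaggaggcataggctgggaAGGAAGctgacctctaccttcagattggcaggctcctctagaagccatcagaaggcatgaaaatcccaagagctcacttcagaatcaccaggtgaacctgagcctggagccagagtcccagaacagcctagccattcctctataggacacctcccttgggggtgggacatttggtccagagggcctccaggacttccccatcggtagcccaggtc
Matches to AGGAAG lay 229 to 224 and 15 to 10 bases before the start of Cxcr3, and 247 to 242 and 215 to 210 bases before that of Cxcr2. Both matches of Cxcr3 and the first of Cxcr2 were on the opposite strand. The Cxcr6 window held none of the motifs searched, although the shorter GGAA, which was not searched, occurs in it. The table had entries for 8 of 9 receptors, with 2 starts for Ccr6, and Ccr7 is named only. AGGAAG was found in 3 of these 9 windows and in 29.5% of 32851 windows of the same length. GGGCGG, the GC box, was found in 1 of 9, that of Cxcr4, against 32.7%, and TATAAA, the TATA box, also in 1 of 9, again that of Cxcr4, against 12.4%. TTCNNNGAA, a site of STAT factors, was found in 1 of 9, in a Ccr6 window, against 7.02%. TCACACC, a core bound by T-box factors, was in 0 of 9 against 3.33%. All motifs were searched on both strands, and a match describes letters and not a bound site.

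The ligands of these receptors were read from the same fit. Of 20 ligand genes tested, 17, among them the undetected Ccl20, had a positive difference, with a median of 1.01 against 0.0063 over all genes. By limma 1 of 20 rose, Ccl6, and 0 fell, beside 0.245% and 0.149% over all genes. Ccl6, a myeloid chemokine that binds CCR1, gave 15.72, 15.25, 15.01 and 15.04 in the control group and 16.29, 16.00, 16.19, 16.53 and 16.19 in the irradiated group. Every irradiated array was above every control array, and Ccl6 rose by 0.98 (SE 0.16, 95% interval 0.63 to 1.34), or 1.98-fold, with an adjusted p of 0.0416. With the scan pairs as a block its adjusted p was 0.0760, at a difference of 0.97, and with the pairs as a random block it was 0.00642, at 0.98. The call was also lost when control 2, 3 or 4 or irradiated 2, 3, 4 or 5 was left out, with adjusted p between 0.0662 and 0.137 and differences of 0.90 to 1.05.

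For Ccr1, the other ligands measured were Ccl3, Ccl5, Ccl8 and Ccl9. Ccl3, an early chemokine of macrophages, gave 8.43, 8.18, 8.55 and 8.54 on the control arrays against 8.93, 9.56, 9.39, 10.50 and 9.85 on the irradiated arrays. The groups did not overlap, and the difference was 1.22 (SE 0.27, limma adjusted p 0.113). Ccl5, a T cell chemokine, differed by 0.059 (SE 0.22, adjusted p 0.981), and Ccl8 and Ccl9 by 1.35 (SE 0.73, adjusted p 0.605) and 0.53 (SE 0.25, adjusted p 0.541). For Ccl8 the difference was 1.92 without irradiated 1 and is smaller without control 3, the lowest array at 10.98.

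The ligands of Ccr2 are those that draw monocytes into tissue. Ccl2, the main monocyte chemoattractant, gave 10.27, 10.03, 8.42 and 9.23 in the control group and 9.63, 12.37, 11.61, 11.71 and 12.37 in the irradiated group. Irradiated 1 lay within the control range and the other 4 irradiated arrays lay above it, whereas of the Ccr2 values irradiated 2 alone lay above the control range. Ccl2 differed by 2.05 (SE 0.57, limma adjusted p 0.216), Ccl7 by 2.09 (SE 0.62, adjusted p 0.243) and Ccl12 by 1.53 (SE 0.54, adjusted p 0.334). With the scan pairs as a block, Ccl2, Ccl7 and Ccl12 rose by 2.53, 2.52 and 1.93, with adjusted p of 0.0356, 0.0317 and 0.0296. In the same block fit Ccr2 differed by 0.18 with an adjusted p of 0.596.

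Cxcr2 had 5 ligand genes. Cxcl1, a neutrophil chemoattractant, gave 6.51, 6.08, 5.32 and 5.28 on the control arrays against 6.24, 9.19, 8.42, 9.28 and 9.71 on the irradiated arrays, with irradiated 1 again within the control range. Its difference was 2.77 (SE 0.64, limma adjusted p 0.127), and 3.35 with the scan pairs as a block, with an adjusted p of 0.0318. It was 1.86 with normexp and 1.84 in the authors' table. Cxcl5 differed by 1.62 (SE 0.91, adjusted p 0.634). Without irradiated 1 the Cxcl5 difference was 2.15. Control 3, at 5.99, was the lowest array for Cxcl5, and the difference is smaller without it. Cxcl2 and Cxcl3 were well above background on 1 and 2 of 4 control arrays and each on 4 of 5 irradiated arrays, and differed by 1.26 (adjusted p 0.484) and 1.55 (adjusted p 0.693). For Cxcl3 the difference was 2.19 without irradiated 1 and is smaller without control 3, the lowest array at 2.36. Ppbp, a chemokine stored in platelets, went the other way, at 12.60, 12.75, 13.06 and 12.54 in the control group and 11.78, 11.96, 12.11, 11.31 and 11.57 in the irradiated group. The groups of Ppbp did not overlap, and its difference of −0.99 (SE 0.17) had an adjusted p of 0.0513. Ppbp was called lower with the pairs as a random block (adjusted p 0.00663), with the filter on all arrays (0.0344) and with the mean of probes (0.0433). With the scan pairs as a fixed block its adjusted p was 0.0727.

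Of the ligands of Cxcr3, Cxcl9 differed by 0.43 (SE 1.19, limma adjusted p 0.969) and Cxcl10 by 1.04 (SE 0.82, adjusted p 0.777). Both varied widely among the control arrays, from 6.40 to 11.61 for Cxcl9 and from 9.33 to 12.37 for Cxcl10. The Cxcl9 difference was 0.94 without irradiated 1 and 0.95 with the scan pairs as a block. Its sign was not stable. Within scan pairs it was 1.05, −0.23, 3.23 and −0.25, and the group medians were 10.16 for control and 9.63 for irradiated arrays. Control 3 was the lowest array for Cxcl9 and irradiated 2 the highest. Leaving out either puts the irradiated mean of Cxcl9 below the control mean. The Cxcl10 difference was 0.50 without control 3, 0.69 without control 4 and 0.55 without irradiated 2. Cxcl16, the ligand of Cxcr6, differed by 0.38 (SE 0.22, adjusted p 0.650), and by 0.51 with an adjusted p of 0.0307 with the scan pairs as a block. With the pairs as a random block it differed by 0.46, with an adjusted p of 0.0621. Ccl19, a ligand of Ccr7, differed by 0.19 (SE 0.25, adjusted p 0.887), Cx3cl1 by −0.089 (SE 0.13, adjusted p 0.908), and Cxcl12, the ligand of Cxcr4, by −0.12 (SE 0.25, adjusted p 0.948). Without irradiated 1 these were 0.40 (95% interval 0.041 to 0.76, adjusted p 0.380), −0.15 and −0.0086. Ccl20, the ligand of Ccr6, was not well above background on any array and has no fold. Ccl21a and Cxcl11 were not matched to a probe.

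**Figure D5:**
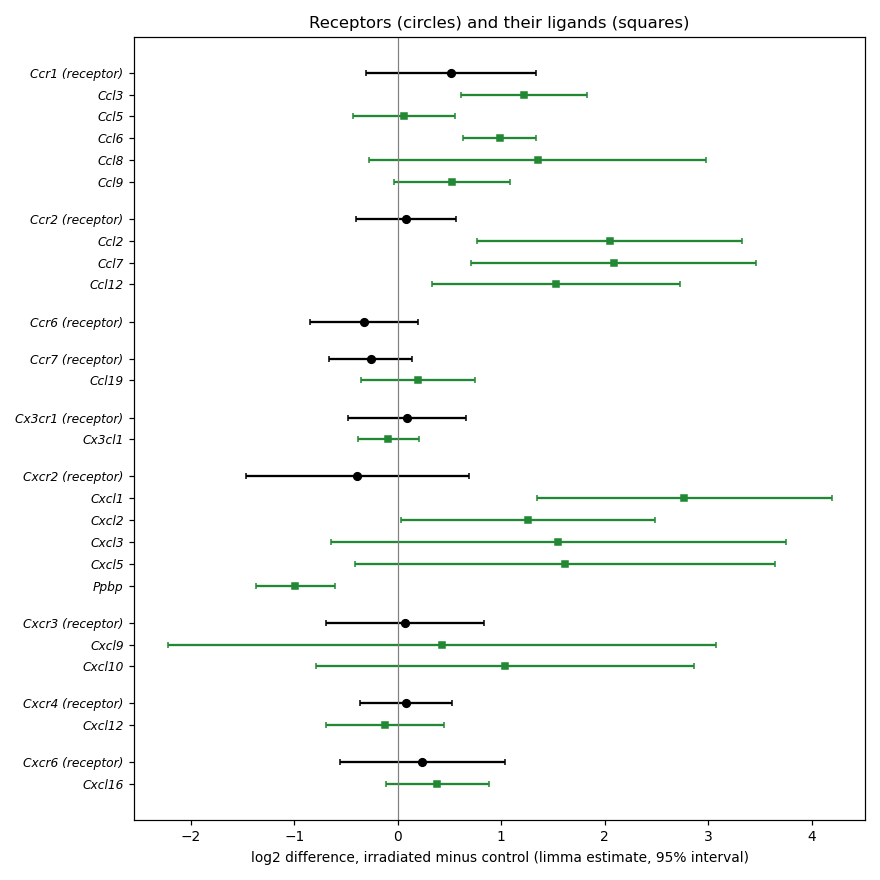
Limma log2 differences, irradiated minus control, with 95% intervals over all 9 arrays, for each receptor (circles) and its ligands (squares), without Ccl20, which was not well above background. The intervals of Ccl3, Ccl6, Ccl2, Ccl7, Ccl12, Cxcl1 and Cxcl2 lie above 0 and that of Ppbp below 0, and Ccl6 alone had an adjusted p under 0.05.

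Leaving out irradiated 1, 5 of 20 ligands were called by limma, Ccl2, Ccl3, Ccl6 and Cxcl1 higher and Ppbp lower, with 0 of 9 receptors. With the scan pairs as a block, 6 of 20 ligands were called, all higher, Ccl2, Ccl3, Ccl7, Ccl12, Cxcl1 and Cxcl16, again with 0 of 9 receptors. Over all genes, 1.63% were called without irradiated 1 and 3.75% with the block. With the pairs as a random block, which calls 9.20% of all genes, 7 of 20 ligands were called. Of these, 6 were higher and Ppbp was lower, and Cxcl16 was not among them. In the fit without irradiated 1 and in that with the fixed block, some marker genes of macrophages and dendritic cells were called higher. Without irradiated 1 these were Adgre1 and Msr1 of the macrophage list and Itgax and Cd209a of the dendritic cell list, and with the block they were Adgre1, Cd14, Cybb, Mertk and Msr1 of the macrophage list and Cd209a. Tie1 of the endothelium list was called lower with the block, at −0.31 with an adjusted p of 0.0469. Itgam, Marco and Siglecf of the macrophage list and 9 of 11 neutrophil markers had negative differences in the fit over all arrays. The part of these markers in the ligand values was not tested. Whether the ligands differed more than the receptors was not tested.

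Of 13 other chemokine receptors, 0 were called without a block, with a median difference of 0.28. The brightest of the 13 were Ackr2 and Ackr3, which take up chemokines without G protein signaling, and Cxcr5, which leads B cells into follicles. They differed by 0.066, 0.60 and −0.27, with adjusted p of 0.973, 0.318 and 0.808. Without irradiated 1 these differences were 0.013, 0.54 and −0.14. Of the 13, 4 had an unadjusted p under 0.05, against 12.0% over all genes. Among these, named after their values were seen, Cxcr1, a neutrophil receptor, differed by 1.45 (95% interval 0.23 to 2.67, adjusted p 0.381), Ackr4 by −0.90 (adjusted p 0.424) and Ccrl2 by −0.29 (adjusted p 0.451). Within scan pairs Cxcr1 differed by −0.89, 1.67, 3.00 and 2.51, and its interval with the fixed block crossed 0, at −0.095 to 3.24. With the pairs as a random block, beside 9.20% of all genes, 1 of the 13 was called, Ccrl2, at −0.33 (adjusted p 0.0405). On chromosome 9 of the RefSeq table, Cxcr6, Xcr1, Ccr1, Ccr1l1, Ccr3 and Ccr2 follow each other with no other protein-coding gene between them. Their differences were 0.24 for Cxcr6, 1.01 for Xcr1, 0.51 for Ccr1, −0.40 for Ccr3 and 0.083 for Ccr2, and Ccr1l1 was not among the genes listed. None of these was called. Ccr1 was near background, and Xcr1 was well above it on 3 of 4 control arrays. Ccr3 and Cxcr6 were well above background on every array. In the irradiated arrays of the 4 scan pairs Ccr3 was always lower and Cxcr6 always higher, beside 17.4% and 17.3% of all genes. Ccr2 was higher in 2 pairs and lower in 2. The estimates of the neighbors thus did not all go 1 way, and whether their directions differ was not tested.

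None of the genes of the signaling path below the receptors was called in the fit over all 9 arrays without a block. Of 29 genes for inhibitory G proteins, receptor kinases, arrestins, regulators of G protein signaling and effectors of migration, 0 were called without a block, with a median of 0.042. All 29 were detected well above background throughout. The brightest 3, the G protein subunits Gnb2 and Gnai2 and the small GTPase Rac1, differed by 0.042, 0.091 and 0.012, with limma adjusted p of 0.965, 0.911 and 0.994. Of the 29, 5 had an unadjusted p under 0.05, beside 12.0% of all genes. Among these, named after their values were seen, the inhibitory subunit Gnai1 did not overlap between the groups and differed by 0.36 (SE 0.085, adjusted p 0.130), Rgs1, a brake on G protein signaling, differed by 1.06 (adjusted p 0.493), Pik3r5, a kinase subunit, by 0.48 (adjusted p 0.307), Gnb1, a G protein subunit, by 0.26 (adjusted p 0.422), and the arrestin Arrb1 by −0.19 (adjusted p 0.466). The 4 called with the random block, beside 9.20% of all genes, were Gnai1 at 0.38 (adjusted p 0.00937), Pik3r5 at 0.55 (0.0246), Rgs1 at 1.22 (0.0455) and Arrb1 at −0.20 (0.0472). With the scan pairs as a fixed block 0 of 29 were called.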

How the data were processed

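Total RNA of mouse lung, pooled before labeling, was hybridized to Agilent mouse 44K arrays. The authors deposited the output of the scanner software for each array as intensity values that were not normalized between arrays, and a normalized table of intensity values, used here as an alternative. Control spots and outlier spots were left out, 39303 of 39429 probes were kept, those whose signal exceeded 1.4 times the local background on 4 or more of 9 arrays, the processed signal was quantile normalized on the log2 scale, and spots of a probe were averaged. The background factor, the quantile normalization and the averaging of spots are those of the study's methods, which do not say on how many arrays the factor had to hold. The use of the processed signal and the removal of outlier spots were chosen here. Accessions were matched to a RefSeq gene table (GRCm38.p6, names only), which named 27457 probes. Arrays control 4 and irradiated 5 carry a newer accession list, so both lists were used and 109 probes with conflicting names stayed unnamed.

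Groups were compared with limma 3.58.1 (R 4.3.3), with a trended variance and no covariates, with Benjamini-Hochberg adjustment over all probes kept and a threshold of 0.05. The fit was tested on simulated data, but no result of that test is given here. Single receptors also had an exact two-sided permutation test. Precision is limited by how few arrays there are. The receptors and the lists of ligands, other receptors, signaling genes and cell type markers were chosen with earlier results of these data known. Besides the 9 receptors and their ligands, the text names, of other receptors and signaling genes, those that passed the threshold or, where none did, the 3 brightest, and the 3 genes nearest to the receptor with the largest difference over all 9 arrays. Genes with an array far from its group, neighbors on chromosome 9 and other genes of these lists were named after their values were seen, and the marker lists are given by their means and counts. Some genes of these lists are not reported here.

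The alternatives were another background correction, scaling to the 75th percentile, other background filters, the authors' table, no trend, array weights, blocks by replicate number or by scan pair, the average over a gene's probes, a threshold of 0.01, and leaving out each array. Scan pairs are arrays whose grids start nearest to each other in image height. The labels name the dye Cy5 while the deposited columns are those of the green channel, and which of these is right was not settled. Without a block, markers of endothelium, lung epithelium, natural killer cells, dendritic cells and all leukocytes gave 0 genes past the threshold of 10, 10, 10, 11 and 8 tested. Epithelial and endothelial markers were each well above background on every array.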

Additional observations from a re-analysis of the deposited data

Results flagged for a closer look

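In groups of 4 or 5 arrays, an array was marked where its gap to the nearest other array was a large share of the group's range by Dixon's criterion, which chance meets in about 1 of 20 groups. It was met in 10 of 170 groups of genes and list means, or 5.88%. Among the receptors the single case was Ccr2, at 12.12 on irradiated 2 against 10.97 to 11.22 on the other irradiated arrays. Irradiated 1 was low in 6 of the 10 cases. There, Ccl2 was at 9.63 against 11.61 to 12.37 on the other irradiated arrays, Cxcl2 at 4.14 against 5.33 to 5.67, Ackr1, an atypical receptor of venules, at 6.10 against 7.60 to 8.15, and Grk2, a receptor kinase, at 13.35 against 13.94 to 14.16. The mean of the B cell markers was −0.49 on that array against −0.32 to −0.26, and that of the cardiac muscle genes was −5.43 against −0.49 to 0.41. Ccl20 was at 3.12 on irradiated 2 against 1.88 to 2.03, all not well above background. Among the control arrays, Was was at 11.49 on control 3 against 11.81 to 11.85, and the mean of the skeletal muscle genes was 4.11 on control 3 against −1.70 to −1.13.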

How the results depend on the processing

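The count of receptors past the threshold was 0 of 9 under all 12 other settings and with each array left out, and the exact test also called 0 of 9 in each of its alternatives. The lowest adjusted p of a receptor anywhere was 0.0746. The signs were less stable than the counts. Cxcr3 turned to −0.052 with the authors' table and Cx3cr1 to −0.035 with the replicate block. Leaving out 1 array at a time gave −0.11 to 0.18 for Ccr2, −0.035 to 0.29 for Cx3cr1, −0.69 to 0.012 for Cxcr2, −0.10 to 0.37 for Cxcr3 and −0.067 to 0.18 for Cxcr4, while Ccr1 (0.32 to 0.79), Ccr6 (−0.46 to −0.13), Ccr7 (−0.39 to −0.15) and Cxcr6 (0.018 to 0.52) kept their signs. Same-numbered arrays did not pair (correlations of deviations 0.062, −0.017, −0.049 and −0.17). The replicate block, which leaves irradiated 5 out of the difference, left 0 ligands and 1 probe past the threshold.

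Of all probes, 131 passed. This became 197 with the filter on all arrays, 44 with the authors' table, 44 with no trend, 1105 and 2899 with scan pairs as a fixed and a random block, 5 at a threshold of 0.01, and 5 to 485 with 1 array left out. The 485 came without irradiated 1. Against 1 ligand, 0 passed with 75th percentile scaling, the authors' table, no trend and the 0.01 threshold, 2 with the filter on all arrays and with the mean of probes, 6 and 7 with the fixed and random scan pair block, and 0 to 5 with 1 array left out. With the random block 1 of 13 other receptors, Ccrl2, and 4 of 29 signaling genes passed. Cell type markers past the threshold numbered 7 and 16 with the fixed and random block (5 and 6 of them among 12 macrophage markers), 1 with the mean of probes and 0 to 4 with 1 array left out. Over all genes, 3.75% and 9.20% were called with the fixed and random block, and 1.63% without irradiated 1. The cause of these shifts was not tested. Ccl6 lost its call with 75th percentile scaling (adjusted p 0.0531) and stayed positive in all settings, at 0.76 to 1.14. Ccr1 is limited by its signal near background.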
